A study of Mus musculus with 12 samples.

Results

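The comparison described here sets 3 melanoma libraries from ovalbumin-bearing tumors against 3 T cell libraries from tumors without ovalbumin. These are 6 of the 12 mouse libraries of the series, and their labels define the 2 groups. That both groups hold stromal RNA and little effector RNA per T cell marker was known from these data beforehand. For the OVA melanoma fraction the second point depends on which effector genes are taken, as given below. The 2 groups come from different tumors and from different cell fractions. Tumor line and fraction thus change together in every value below, and their effects cannot be told apart. The OVA melanoma fraction was labelled as B16-F10 melanoma cells with 2 lentiviral cassettes, 1 driving ovalbumin and 1 driving the calcium sensor GCaMP6s, each from the EF1A promoter, and it was sorted by FACS for GCaMP6s. The B16-F10 T fraction was labelled as CD8+ T lymphocytes of C57BL/6J-OT-I genotype, selected with CD8 antibody beads from tumors of B16-F10 cells that carried GCaMP6s and no ovalbumin cassette. All tumors grew in NOD-SCID mice, which lack T and B cells of their own but keep myeloid, stromal and endothelial cells, and all were given bead-activated OT-1 CD8+ T cells. The tumors were taken 2 days after the transfer. The other 6 libraries are the B16-F10 melanoma fraction and the OVA T fraction, which complete the design of 2 tumor lines by 2 fractions, with 3 libraries in each of 4 groups. Separate animals are not named for the 3 libraries within a group. The p-values then measure only how far these samples spread, and that spread may be technical.

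OT-1 T cells carry 1 transgenic T cell receptor that reads an ovalbumin peptide on MHC class I. On contact with that peptide such cells release interferon gamma and kill with perforin and granzymes, and interferon gamma in turn switches on genes such as the GTPases of the Gbp and Irgm families in the cells around them. A melanoma also holds macrophages, neutrophils, vessels lined by endothelial cells and wrapped by pericytes, and fibroblasts that lay down collagen. A tumor under the skin can carry hair follicle, keratinocyte and fat tissue with it. Bulk RNA shows the mixture of all these cells, so fewer cells of a type and less of its RNA per cell cannot be told apart.

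Library totals ran from 18754546 to 33263730 counts in the OVA melanoma fraction and from 15494683 to 19296278 in the B16-F10 T fraction. The other 2 groups lay between 17203672 and 24267494. Levels are given in CPM, counts scaled to the library total, and a fold change always stands for the OVA melanoma fraction over the B16-F10 T fraction. Replicates differed by little more than counting noise, with a chi-square per degree of freedom of 1.51 to 1.77 over the 12 pairs of libraries within groups, and no 2 libraries were counted as 1. The share of counts on mitochondrial genes was 6.42% to 6.57% in the OVA melanoma fraction and 3.22% to 3.37% in the B16-F10 T fraction. It was 1.71% to 1.80% in the B16-F10 melanoma fraction and 2.76% to 2.79% in the OVA T fraction. The 18S ribosomal RNA gene Rn18s-rs5 took 1.20% to 1.22% of the counts in the OVA melanoma fraction and 1.02% to 1.08% in the B16-F10 T fraction, against 0.552% to 0.566% and 0.313% to 0.317% in the other 2, although the protocol selects polyadenylated RNA. These shares move with the comparisons below, and their part in them was not tested.

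The label of neither fraction described its RNA fully. Libraries of the OVA melanoma fraction held 1916, 1941 and 1918 CPM of the pigment cell gene Pmel, but also 538, 542 and 549 CPM of the endothelial receptor Kdr and 228, 227 and 227 CPM of the complement gene C1qa, a macrophage marker. In the B16-F10 melanoma fraction, sorted by the same sensor, Kdr had 0.094, 0 and 0 CPM and C1qa at most 0.317 CPM. Libraries of the B16-F10 T fraction held 61.9, 60.9 and 59.9 CPM of the T cell receptor subunit Cd3e, yet 1829, 1836 and 1799 CPM of the collagen gene Col1a1 and 1313, 1315 and 1313 CPM of Kdr. The pan-leukocyte gene Ptprc had 148, 147 and 143 CPM in the first fraction and 374, 376 and 375 CPM in the second. Both fractions thus carried markers of endothelial cells, fibroblasts and macrophages, at levels the plot of summed lists shows for all 12 libraries. Ovalbumin and GCaMP6s were not measured here, so the cassettes themselves could not be checked.

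**Figure D1:**
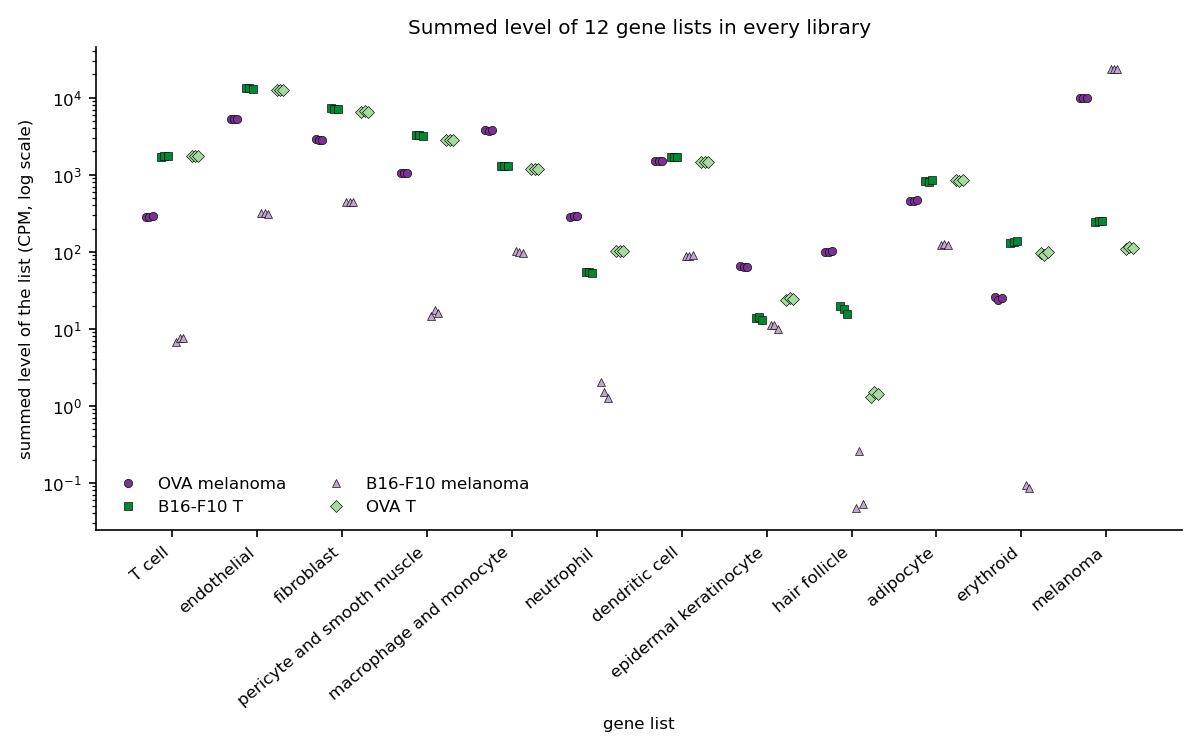
Summed level of 12 gene lists (CPM, log scale) in every library of the 4 groups; each point is 1 library, and 1 library of the B16-F10 melanoma fraction with an erythroid sum of 0 is not drawn. Of these lists, the macrophage, neutrophil, keratinocyte, hair follicle and melanoma sums are higher in the OVA melanoma libraries than in the B16-F10 T libraries, and the others are lower.

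Of 17116 genes tested, 7047 were higher in the OVA melanoma fraction (41.2%) and 6553 lower (38.3%) by edgeR's quasi-likelihood test at an adjusted p of 0.05. Beyond 2-fold, tested against that fold, 2007 were higher (11.7%) and 1677 lower (9.8%). The median log2 fold change over all genes tested was 0.01. Since most genes differed, each list below is read against these shares, with the count beyond 2-fold beside it. Summed lists were also compared by an exact permutation test of 3 against 3 libraries, which cannot go below 0.1, and all 41 list sums reached 0.1, so that no sum overlapped between the groups.

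**Figure D2:**
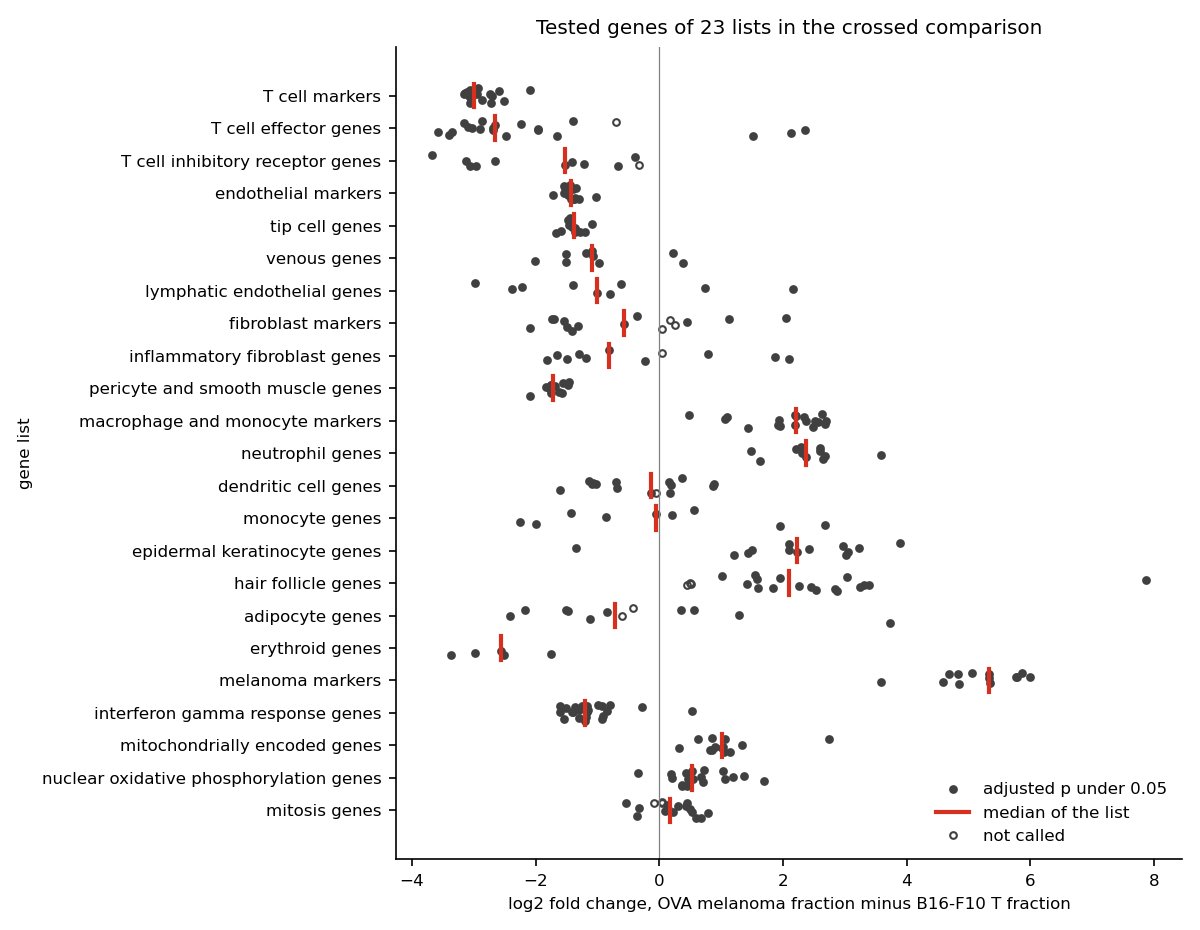
Log2 fold change of every tested gene of 23 lists, OVA melanoma fraction minus B16-F10 T fraction; filled points have an adjusted p under 0.05, open points do not, and the red bar is the median of the list. T cell markers sit around -2.99, endothelial markers around -1.42, macrophage and monocyte markers around 2.21 and melanoma markers around 5.33.

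The T cell genes were lower in the OVA melanoma fraction but far from absent. All 20 T cell markers were lower, all 20 beyond 2-fold, with a median log2 fold change of -2.99 and a range from -3.16 for the CD8 beta chain Cd8b1 to -2.08 for Thy1, a surface protein that fibroblasts also make. Cd8a, the CD8 alpha chain, had 13.6, 13.5 and 15.3 CPM in the OVA melanoma libraries and 119, 120.1 and 117 CPM in the B16-F10 T libraries, a log2 fold change of -3.14 (SE 0.0432, edgeR adjusted p = 1.16e-28). The groups did not overlap for it, and in the B16-F10 melanoma fraction the same gene had at most 0.094 CPM. The receptor chain gene Trbc2 had 36.7, 37 and 37.1 CPM against 287, 290.4 and 285 CPM, or 8.21-fold less. Summed over the 20 markers, the T cell level was 282 ± 4.07 CPM (SD, n = 3) in the OVA melanoma fraction, 1724 ± 7.81 in the B16-F10 T fraction and 1756 ± 3.03 in the OVA T fraction.

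The receptor of the transferred cells was read in both fractions. Of 11 variable and joining segments listed for the OT-1 receptor, 2 passed the filter on low counts. The beta segment Trbv12-1 had 13.6, 13.8 and 14 CPM in the OVA melanoma fraction and 105, 101 and 106 CPM in the B16-F10 T fraction, and 0 counts in all 3 libraries of the B16-F10 melanoma fraction. The alpha segment Trav14d-1 had 6.61, 6.83 and 7.4 CPM against 47.9, 48.2 and 47.7 CPM. Their log2 fold changes were -2.99 and -2.86. Scaled to the T cell marker counts, as described below, both were lower, by -0.31 and -0.18 (edgeR adjusted p = 8.74e-07 and 0.0120). Without that scale, however, both lay near the median of the T cell markers, which was -2.99. The scale includes Thy1, which fibroblasts also make and which changed by only -2.08. Near-identical segments share reads, so the split between copies is uncertain.

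Most effector genes of killer T cells were lower too. Of 21 tested, 17 were lower and all 17 of these beyond 2-fold, 3 were higher, and the cytokine gene Csf2, named after its values were seen, did not pass the test at -0.70 (edgeR adjusted p = 0.0671), with a median of -2.65. Ifng, which encodes interferon gamma, had 1.2, 1.44 and 1.37 CPM in the OVA melanoma fraction and 13.7, 12.2 and 12.5 CPM in the B16-F10 T fraction, a log2 fold change of -3.35 (SE 0.131, edgeR adjusted p = 1.81e-18). Granzyme B, Gzmb, had 22, 20.9 and 20.3 CPM against 126, 131 and 132 CPM, and perforin, Prf1, had 1.02, 0.906 and 0.845 CPM against 4.4, 4.07 and 4.13 CPM. In no library of the 2 groups did these 3 genes approach the OVA T fraction, where Ifng had 317, 322 and 307 CPM, Gzmb 1646, 1613 and 1612 CPM and Prf1 87.4, 84 and 89.1 CPM. The 3 higher genes were the chemokines Ccl3 and Ccl4 and the cytokine Tnf, which macrophages and neutrophils also make: their log2 fold changes were 2.35, 2.13 and 1.51. Ccl3 had 219, 231 and 216 CPM against 43.8, 39.7 and 39.8 CPM. The summed macrophage markers, given below, were higher in the same libraries, and their part in these 3 genes was not tested.

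Per unit of T cell marker RNA, the summed killing genes were nearly level between the 2 groups, while single members went both ways. The summed CPM of the granzymes, Prf1 and Ifng, divided by the summed CPM of the 20 markers, was 0.143, 0.143 and 0.141 in the OVA melanoma fraction and 0.138, 0.140 and 0.141 in the B16-F10 T fraction, a ratio of 1.02 between the means. In the OVA T fraction it was 1.38, 1.35 and 1.36, or 9.55 and 9.75 times as high as in the other 2. This subset was chosen after its values were seen, and Gzmb gives most of its sum. The 20 markers include Thy1, which fibroblasts also make. Its log2 fold change was -2.08, against a marker median of -2.99 and a log2 ratio of -2.61 for the marker sum. How the values per marker would change without Thy1 was not tested. The ratio between the 2 groups was 0.520 for Gzmf and 0.639 for Ifng, but 1.15 for Gzmc, 2.06 for Gzmd, 2.36 for Gzme and 3.61 for Gzmg. The last 3 are granzyme genes with a mean under 2 CPM in both groups, and the last 4 are named after their values were seen. With all 24 effector genes the ratio was 1.92 ± 0.0417 (SD, n = 3) against 0.483 ± 0.00393, a log2 difference of 1.99 that shrank to 0.03 without the chemokines, Tnf, transcription factors and the other genes outside the subset. In the OVA T fraction the ratio with all 24 was 2.13 ± 0.0127, only 1.11 times that of the OVA melanoma fraction. On the full list the OVA melanoma fraction was thus not low per T cell marker. Gzmb per marker was 0.0747 ± 0.00373 in the OVA melanoma fraction and 0.0752 ± 0.00145 in the B16-F10 T fraction, and the interleukin receptor chain Il2ra was 0.0471 ± 0.000544 and 0.0471 ± 0.000569.

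**Figure D3:**
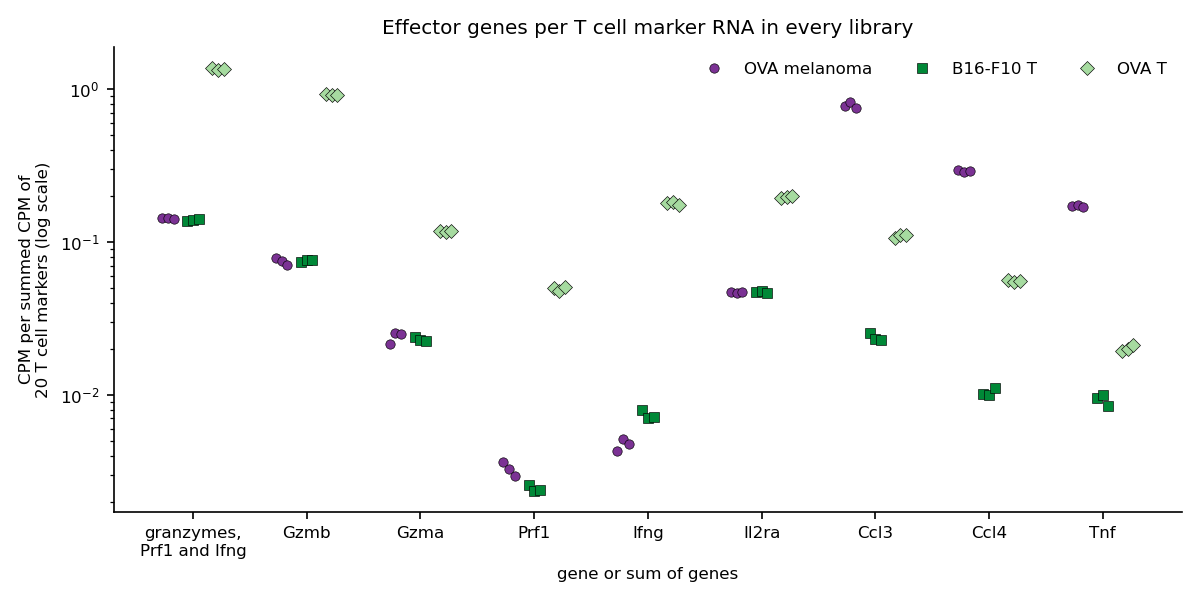
CPM of effector genes divided by the summed CPM of 20 T cell markers (log scale) in 3 groups; each point is 1 library. For the granzymes, Prf1 and Ifng together, the OVA melanoma and B16-F10 T libraries lie between 0.138 and 0.143 and the OVA T libraries between 1.35 and 1.38, whereas Ccl3, Ccl4 and Tnf are highest in the OVA melanoma libraries.

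A fit over all genes with the library size set to the summed marker counts, Thy1 included, compared the genes one by one. Under that scale 98.4% of all genes tested were higher and 0.327% lower in the OVA melanoma fraction, with a median log2 fold change of 2.69, since this scale raises all genes of a fraction with few marker counts. Against this background, 10 of 21 effector genes were higher and 6 lower, and the median was 0.03. Gzmb, Il2ra and the granzyme gene Gzma, the last named after its values were seen, did not pass the test (edgeR adjusted p = 0.938, 0.962 and 0.695), while Ifng, the chemokine gene Xcl1, the death ligand Fasl and the transcription factor gene Eomes were lower per marker, by -0.67, -0.72, -0.48 and -0.40 on the log2 scale. Of the other granzyme genes tested, Gzmf was lower by -0.93, Gzmc and Gzmd were higher by 0.21 and 1.01, and Gzmk, named after its values were seen, at -0.21 did not pass (edgeR adjusted p = 0.267). Prf1 was higher by 0.44 (SE 0.207, edgeR adjusted p = 0.0440). Inhibitory receptors split: of 11 tested, 6 were higher and 4 lower per marker, and the lower ones included Ctla4 at -0.44, Pdcd1, which encodes PD-1, at -0.38, and Tox, a regulator of exhaustion, at -1.02. The 6 higher were Cd244a at 2.36, Havcr2 at 2.29, Entpd1 at 2.02, Lag3 at 1.28, Cd200 at 1.17 and Btla, named after its values were seen, at 1.47. All 6 were beyond 2-fold, and none of the lower ones was. The list median was 1.17, under the 2.69 of all genes.

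Without that scale 10 of 11 inhibitory receptor genes were lower, 8 of them beyond 2-fold, with a median of -1.52, and none was higher. Pdcd1 had 9.74, 9.97 and 9.54 CPM against 76.2, 77.7 and 78.5 CPM. Tox had 0.18, 0.48 and 0.241 CPM against 3.32, 3.33 and 3.61 CPM, and the OVA T fraction, at 0.475 ± 0.247 CPM (SD, n = 3), lay near the OVA melanoma fraction. Havcr2, which encodes TIM-3 and is also made by myeloid cells, differed little, with 15.1, 15.9 and 14.8 CPM against 20, 19.2 and 17.6 CPM. Of 11 costimulation and receptor signal genes 9 were lower and 1 higher, and of 11 naive and memory genes 9 were lower and 2 higher. Tcf7, a transcription factor of resting and memory T cells, had 15.4, 13.3 and 13.5 CPM in the OVA melanoma fraction, 61.5, 62 and 62.7 CPM in the B16-F10 T fraction and 15.2 ± 0.765 CPM in the OVA T fraction.

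Macrophage genes were higher in the OVA melanoma fraction. All 18 macrophage and monocyte markers were higher, 17 of them beyond 2-fold, with a median log2 fold change of 2.21. C1qa had 35.2, 37.1 and 37.3 CPM in the B16-F10 T fraction and 228, 227 and 227 CPM in the OVA melanoma fraction, a log2 fold change of 2.57 (SE 0.0288, edgeR adjusted p = 1.68e-30). The lysozyme gene Lyz2 had 569, 555 and 569 CPM against 113, 115 and 119 CPM, and Ms4a7, a membrane protein of tissue macrophages, led the list at 2.69. The smallest difference was that of the protease gene Lgmn, at 0.49. Their sum was 3751 ± 19.5 CPM (SD, n = 3) in the OVA melanoma fraction, 1289 ± 3.68 in the B16-F10 T fraction and 1198 ± 1.26 in the OVA T fraction.

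Tumor macrophage and neutrophil genes were higher as well. Of 19 tumor macrophage genes 16 were higher, 15 beyond 2-fold, and 3 lower, with a median of 1.78. The largest change, 4.95 for Gpnmb, belongs to a gene that pigment cells also use, and it had 4152 ± 10.9 CPM in the B16-F10 melanoma fraction, where macrophage markers were low. Apoe, a lipid carrier of macrophages, at 373, 372 and 375 CPM against 67, 71.9 and 69.1 CPM, was likewise high in the B16-F10 melanoma fraction, at 518 ± 4.56 CPM. The lipid-sensing receptor Trem2 was not: it had 27.5, 26.3 and 25.7 CPM against 3.89, 3.56 and 5.1 CPM, and at most 0.047 CPM there. All 11 neutrophil genes tested were higher, all beyond 2-fold, with a median of 2.37. The calprotectin subunit S100a9 had 97.5, 97.6 and 98.9 CPM against 18.2, 18.2 and 17.4 CPM, and the receptor Csf3r had 75.5, 78.6 and 78.7 CPM against 12.6, 11.9 and 11.7 CPM.

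Dendritic cell and monocyte genes did not follow. Of 15 dendritic cell genes 6 were higher and 7 lower, and the median was -0.13. The cross-presenting cell receptor Clec9a had 4.06, 4.64 and 4.3 CPM in the OVA melanoma fraction and 9.07, 9.49 and 8.2 CPM in the B16-F10 T fraction, and the migration receptor Ccr7, which T cells also carry, had 75.7, 71 and 69.6 CPM against 214, 211 and 205 CPM. The class II genes were slightly higher: H2-Aa had 251, 248 and 257 CPM against 211, 207 and 215 CPM. Of 9 monocyte genes 4 were higher and 5 lower. Ly6c2, a surface protein of inflammatory monocytes and of activated CD8 T cells, was the lowest at -2.25, and Chil3, a secreted chitinase-like protein, the highest at 2.68. Ly6c2 and the integrin gene Itgal, at -1.99, are also read from T cells, whose markers were lower in the same libraries, and that part was not tested.

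The myeloid lists were also scaled to macrophage marker counts. Under that scale 6.94% of all genes were higher and 86.7% lower, around a median of -1.46. All 15 dendritic cell genes were lower, with a median of -1.59, close to that background. Of 9 monocyte genes 7 were lower and 2 higher, and their median of -1.52 was close to it too. Of 11 neutrophil genes 8 were higher and none lower, with a median of 0.91, and of 19 tumor macrophage genes 10 were higher and 4 lower, and the median was 0.31. Trem2 was higher per marker by 1.14 (SE 0.0988, edgeR adjusted p = 5.09e-11), and the elastase gene Mmp12, at -0.06, did not pass the test.

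Endothelial markers were lower in the OVA melanoma fraction, by similar but not equal amounts. All 16 endothelial markers were lower, 15 of them beyond 2-fold, with a median log2 fold change of -1.42 and a narrow range from -1.72 for the transcription factor Erg to -1.02 for Eng, a receptor also read in the B16-F10 melanoma fraction at 289 ± 2.14 CPM. The VEGF receptor Kdr, given above, changed by -1.35 (SE 0.0136, edgeR adjusted p = 1.53e-31), and its relative Flt1 had 852, 837 and 846 CPM against 2336, 2347 and 2304 CPM. The cadherin Cdh5 had 812, 813 and 799.7 CPM against 1976, 1984 and 1966 CPM, while the B16-F10 melanoma fraction had at most 0.215 CPM. The summed markers were 5286 ± 36.5 CPM (SD, n = 3), 13183 ± 83.5 and 12517 ± 33.4 in the OVA melanoma, B16-F10 T and OVA T fractions.

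Most genes of the vessel subtypes were lower. All 12 tip cell genes, which mark sprouting vessels, were lower, with a median of -1.39, as were all 8 arterial genes tested, with a median of -1.54. Inhbb, an activin subunit, had 424, 419.8 and 428 CPM against 1216, 1203 and 1208 CPM, and the tip cell proteoglycan Esm1 had 241, 244 and 241 CPM against 718, 741 and 731 CPM. Of 8 capillary and lipid handling genes 7 were lower, among them the fatty acid binding protein Fabp4, at 257, 251 and 258 CPM against 676, 660.5 and 688 CPM. Of 9 venous genes 7 were lower and 2 higher, and the 2 were von Willebrand factor, Vwf, at 0.23, and the adhesion molecule Vcam1, at 0.39. The venous chemokine receptor Ackr1 was the lowest at -2.02, with 3.4, 3.15 and 3.1 CPM against 13.1, 12.5 and 11.6 CPM. Scaled to endothelial marker counts, where 86.8% of all genes were higher and 3.9% lower around a median of 1.40, tip cell genes had a median of 0.01 (3 higher and 5 lower of 12), capillary genes -0.01 and arterial genes -0.14. On that scale 6 of 9 venous genes were higher and 3 lower, around a median of 0.31, and Vwf and Vcam1 were higher by 1.62 and 1.78.

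Lymphatic vessel genes were uneven. Of 9 genes 7 were lower and 2 higher, and the chemokine gene Ccl21a had 3.43, 4 and 3.06 CPM in the OVA melanoma fraction and 25.7, 26 and 26.1 CPM in the B16-F10 T fraction. It had 0 counts in all 6 libraries of the other 2 groups, so that against a floor of 3 counts over the OVA T fraction it was at least 74.7-fold and at least 562-fold higher in these 2. The related copies of this chemokine share sequence, so its assignment is uncertain. The genes higher in the OVA melanoma fraction, Pdpn at 2.16 and the transcription factor Prox1 at 0.75, were highest in the B16-F10 melanoma fraction, at 25.7 ± 1.13 and 13 ± 0.916 CPM. Scaled to endothelial marker counts, 5 of the 9 were higher and 3 lower, around a median of 0.38, from -1.59 for Ccl21a to 3.56 for Pdpn.

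Fibroblast markers differed in both directions. Of 15 markers 9 were lower, 7 of them beyond 2-fold, and 3 were higher, with a median log2 fold change of -0.57. The lowest was Thy1, also a T cell marker, at -2.08. Col1a1 had 660.4, 656 and 661 CPM against 1829, 1836 and 1799 CPM (log2 fold change -1.54, SE 0.0134, edgeR adjusted p = 7.83e-33), and Col3a1 had 735, 745 and 729 CPM against 1744, 1732 and 1722 CPM. The proteoglycan Dcn of dermal fibroblasts, named after its values were seen, went the other way with 14.7, 15.3 and 15.7 CPM against 12.2, 9.44 and 10 CPM. The matrix gene Fbln1, at 2.05, and Serpinf1, at 1.13, were higher too, and both were also read in the B16-F10 melanoma fraction, at 128 ± 0.746 and 55.7 ± 0.839 CPM. The list sum was 2851 ± 11.9 CPM (SD, n = 3) against 7194 ± 55.5, a log2 ratio of -1.33 that turned to 0.38 when the collagen genes and Thy1 were left out, an alternative chosen after seeing the data. Pericytes share the collagens, and their genes, given below, were lower too. Their part in the collagen values was not tested.

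All 12 pericyte and smooth muscle genes were lower, each beyond 2-fold, with a median of -1.71. Rgs5, a signalling regulator that marks pericytes, had 389.6, 380.0 and 386 CPM against 1308, 1306 and 1308 CPM (log2 fold change -1.84, SE 0.0145, edgeR adjusted p = 9.52e-34). Smooth muscle myosin, Myh11, had 30, 28.4 and 27.6 CPM against 116, 116 and 117 CPM. Of 11 contractile fibroblast genes 8 were lower and 1 higher, with a median of -1.39, led by smooth muscle genes such as Acta2, at 108, 112 and 104 CPM against 375, 366 and 376 CPM.

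Inflammatory fibroblast genes were mixed. Of 11 genes 7 were lower and 3 higher: Il6 had 105, 107 and 109 CPM against 349, 366 and 361 CPM, while the prostaglandin synthase Ptgs2 had 273, 282 and 280.0 CPM against 74.5, 71.5 and 71.1 CPM and complement C3 had 67.1, 67.4 and 69.2 CPM against 14.2, 16.3 and 14.8 CPM. Macrophages and neutrophils also make the last 2. Of 9 adventitial genes 4 were lower and 4 higher. Scaled to fibroblast marker counts, where 87.1% of all genes were higher and 3.7% lower around a median of 1.42, the contractile genes had a median of 0.01, the inflammatory genes 0.59 and the adventitial genes 1.33, all under the median of all genes. These medians depend on the fibroblast marker sum, whose direction turned without the collagen genes and Thy1. A scale without those genes was not tested.

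**Figure D4:**
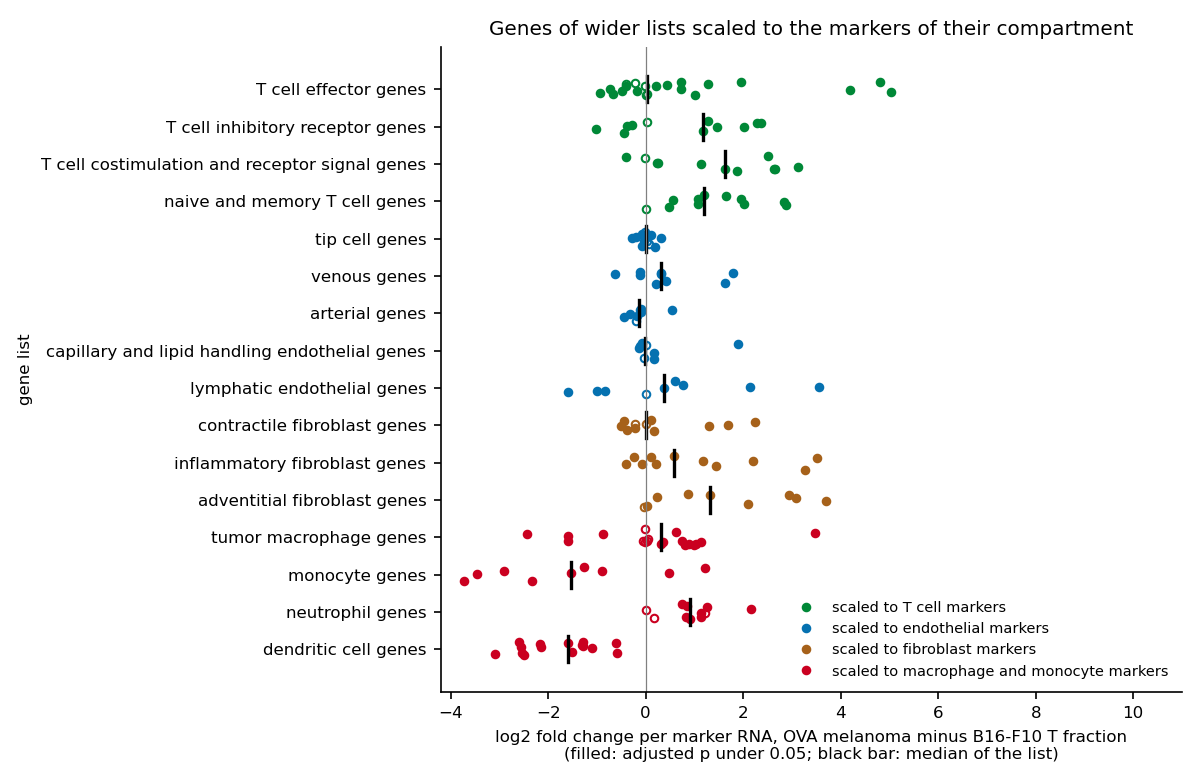
Log2 fold change of the genes of 16 lists after scaling each library to the summed marker counts of the compartment, OVA melanoma fraction minus B16-F10 T fraction; filled points have an adjusted p under 0.05 and black bars are medians. Tip cell, capillary and contractile medians lie at 0.01, -0.01 and 0.01, the dendritic cell median at -1.59 and the neutrophil median at 0.91.

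Hair follicle and keratinocyte genes were mostly higher in the OVA melanoma fraction, and those of the hair follicle were near 0 outside these 2 groups. Of 20 hair follicle genes tested 17 were higher, 14 beyond 2-fold, and none lower, with a median log2 fold change of 2.10. A gene near 0 in the B16-F10 T fraction, such as Krt72 below, passed the filter only through the OVA melanoma fraction. Such members could not come out lower, so the filter partly sets the counts and medians here and for the keratinocyte genes. Krt71, a keratin of the inner root sheath, had 20.2, 20 and 20.9 CPM in the OVA melanoma fraction and 2.07, 1.86 and 1.55 CPM in the B16-F10 T fraction (log2 fold change 3.39, SE 0.106, edgeR adjusted p = 1.2e-20). It had 0 counts in the B16-F10 melanoma fraction and at most 0.0581 CPM in the OVA T fraction. Its partner Krt25 had 12.9, 12.3 and 12.6 CPM against 1.14, 1.3 and 1.16 CPM, and the sheath protein Tchh had 14.6, 12.6 and 13 CPM against 2.9, 2.54 and 2.58 CPM. Krt72 had 1.2, 1.65 and 1.37 CPM in the OVA melanoma fraction and 0 counts in the 9 others, at least 23.9-fold more than a floor of 3 counts over the B16-F10 T fraction.

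The summed hair follicle list was 99.7 ± 1.4 CPM (SD, n = 3) in the OVA melanoma fraction, 17.7 ± 1.96 in the B16-F10 T fraction, 1.42 ± 0.0976 in the OVA T fraction and 0.119 ± 0.120 in the B16-F10 melanoma fraction. Of 13 keratinocyte genes tested 12 were higher, 10 beyond 2-fold, and 1 lower, with a median of 2.23. Unlike the hair follicle list, the keratinocyte sum was lower in the B16-F10 T fraction, at 13.8 ± 0.593 CPM (SD, n = 3), than in the OVA T fraction, at 24.3 ± 0.559. It was 64.0 ± 1.00 in the OVA melanoma fraction and 10.7 ± 0.753 in the B16-F10 melanoma fraction. Of 4 sebaceous gland genes tested 2 were higher and none lower, with a median of 0.27. Their list sum was 124 ± 2.25 CPM in the OVA melanoma and 124 ± 1.53 in the B16-F10 melanoma fraction. Krt5, a keratin of the basal epidermis, had 7.7, 8.69 and 7.36 CPM against 0.466, 1.75 and 0.452 CPM, and its partner Krt14 had 2.16, 2.83 and 2.37 CPM against 1.4, 0.735 and 0.774 CPM. Both had 0 counts in the B16-F10 melanoma fraction and 1 count in the OVA T fraction. The 1 lower gene was Loricrin, of the cornified layer, at -1.34. Keratin genes are close relatives, so their assignment is uncertain where reads fit several copies.

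Fat genes showed no such pattern. Of 12 adipocyte genes tested 4 were higher and 6 lower, and the median was -0.72. Adipoq, the hormone that defines fat cells, had at most 0.282 CPM in the OVA melanoma fraction and at most 0.452 CPM in the B16-F10 T fraction, too little to pass the filter. The complement protease Cfd, abundant in fat, had 0.782, 0.853 and 1.05 CPM against 4.04, 3.56 and 3.87 CPM, and the carbonic anhydrase Car3 had 0.571, 0.64 and 0.644 CPM against 3.32, 3.05 and 3.03 CPM. The list sum, at 458 ± 4.67 against 830.2 ± 15.2 CPM (SD, n = 3), was carried by Fabp4, which endothelial cells make, and its log2 ratio turned from -0.86 to 0.39 without that gene. The highest member, the metabolic enzyme gene Gpd1 at 3.74, was highest in the B16-F10 melanoma fraction, at 98.6 ± 2.63 CPM.

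Melanoma genes gave the largest differences. All 13 melanoma markers were higher in the OVA melanoma fraction, all beyond 2-fold, with a median log2 fold change of 5.33. Pmel, which builds the melanosome scaffold, had 1916, 1941 and 1918 CPM against 32.3, 31 and 31 CPM (log2 fold change 5.86, SE 0.0209, edgeR adjusted p = 3.18e-41). The pigment enzymes Tyrp1 and Dct had 3428, 3403 and 3436 CPM against 78.5, 81.1 and 81.9 CPM and 2635, 2636 and 2634 CPM against 85.5, 89.7 and 90.3 CPM. The lineage factors Sox10 and Mitf changed by 5.99 and 5.78, and the melanocortin receptor Mc1r by the smallest amount, 3.58. The marker sum of 10033 ± 9.43 CPM (SD, n = 3) in the OVA melanoma fraction lay between 249 ± 3.95 in the B16-F10 T fraction and 23548 ± 51.9 in the B16-F10 melanoma fraction. The B16-F10 T fraction in turn exceeded the OVA T fraction, at 111 ± 3.31 CPM.

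The 12 highest log2 fold changes among genes of at least 5 CPM held the markers Sox10 and Pmel. They were led by Ankfn1, at 46.5, 47.4 and 45.4 CPM against 0.311, 0.565 and 0.323 CPM, and Ppargc1a, a coactivator of mitochondrial genes, at 334, 335 and 349 CPM against 3.52, 3.96 and 4.45 CPM, with log2 fold changes of 6.76 and 6.35. Gpr158, Dock3, Syt9, Pax3, Tspan10, Igf2bp1 and Cimap1c followed, with Sox10 and Pmel among them, from 6.27 to 5.79, and of these 11 genes 10 had their highest group mean in the B16-F10 melanoma fraction. The exception was Igf2bp1, a binder of messenger RNA, with 7.7, 7.52 and 7.6 CPM in the OVA melanoma fraction and 4.1 ± 0.300 CPM (SD, n = 3) in the B16-F10 melanoma fraction. The 12 lowest were Apol7e, at -3.50, and Xcl1, Ifng, Ifi213, Ms4a4b, Il18r1, Cxcr6, Bcl11b, Cd8b1, Fasl, Cd8a and Gimap7, of which Cd8a and Cd8b1 are T cell markers and Xcl1, Ifng and Fasl effector genes.

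Of 21 wider melanoma and neural crest genes, 13 of 18 tested were higher and 5 lower, and the median was 2.07. The growth factor receptor Met had 799, 786 and 799 CPM against 35.9, 33.5 and 37 CPM. The endothelin receptor Ednrb, known from melanocyte development, was lower with 311, 315 and 309.9 CPM against 759, 756 and 739 CPM, and the B16-F10 melanoma fraction had at most 0.188 CPM of it. The stem cell factor receptor Kit was lower as well, at -1.47.

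Interferon gamma response genes were lower in the OVA melanoma fraction. Of 24 tested, 23 were lower, 16 beyond 2-fold, and 1 higher, with a median log2 fold change of -1.19. The class I gene H2-K1 had 552, 538 and 537 CPM against 1359, 1368 and 1359 CPM, and the transcription factor Irf1 had 174, 172 and 169.8 CPM against 358, 375 and 367 CPM. Cd274, which encodes PD-L1, was the exception, with 136, 138 and 136 CPM against 93.2, 88.6 and 88.1 CPM. In the OVA T fraction the list sum was 18200.1 ± 14.8 CPM (SD, n = 3), against 3665 ± 15.5 in the OVA melanoma fraction, 7263 ± 0.998 in the B16-F10 T fraction and 3017 ± 29 in the B16-F10 melanoma fraction.

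Mitochondrial genes were higher. All 13 mitochondrially encoded genes tested were higher, 5 beyond 2-fold, with a median of 1.01, and mt-Co1, a subunit of cytochrome oxidase, had 24799, 25064 and 24954 CPM against 12823, 12458 and 12841 CPM. Of 19 nuclear genes of oxidative phosphorylation 18 were higher and 1 lower, and the median was 0.53. The complex IV subunit Ndufa4 had 103, 102 and 99.2 CPM against 29.8, 30.8 and 28.1 CPM, and it was highest in the B16-F10 melanoma fraction at 317 ± 2.02 CPM (SD, n = 3). Immediate early and heat shock genes, which respond to tissue handling among other stresses, were lower in 19 of 20 cases and higher for Klf4, with a median of -0.50 and none beyond 2-fold.

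The last question was which genes set these 2 groups apart from both others. In 1 fit of all 12 libraries a gene was called shared when it was higher, or lower, in each of the 2 groups than in each of the other 2 (4 edgeR contrasts, each adjusted p under 0.05) and when the 6 libraries did not overlap the 6 others in CPM. Of 18562 genes tested, 379 were shared high (2.04%) and 248 shared low (1.34%), and in 112 and 25 of them each of the 4 contrasts was over 2-fold by its estimate. The same rule applied to the 2 groups from ovalbumin-bearing tumors gave 310 high and 167 low genes, of which 117 and 1 were over 2-fold in each contrast, and applied to the 2 melanoma fractions gave 5279 and 4212. The 3 ways of pairing use the same 12 libraries.

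**Figure D5:**
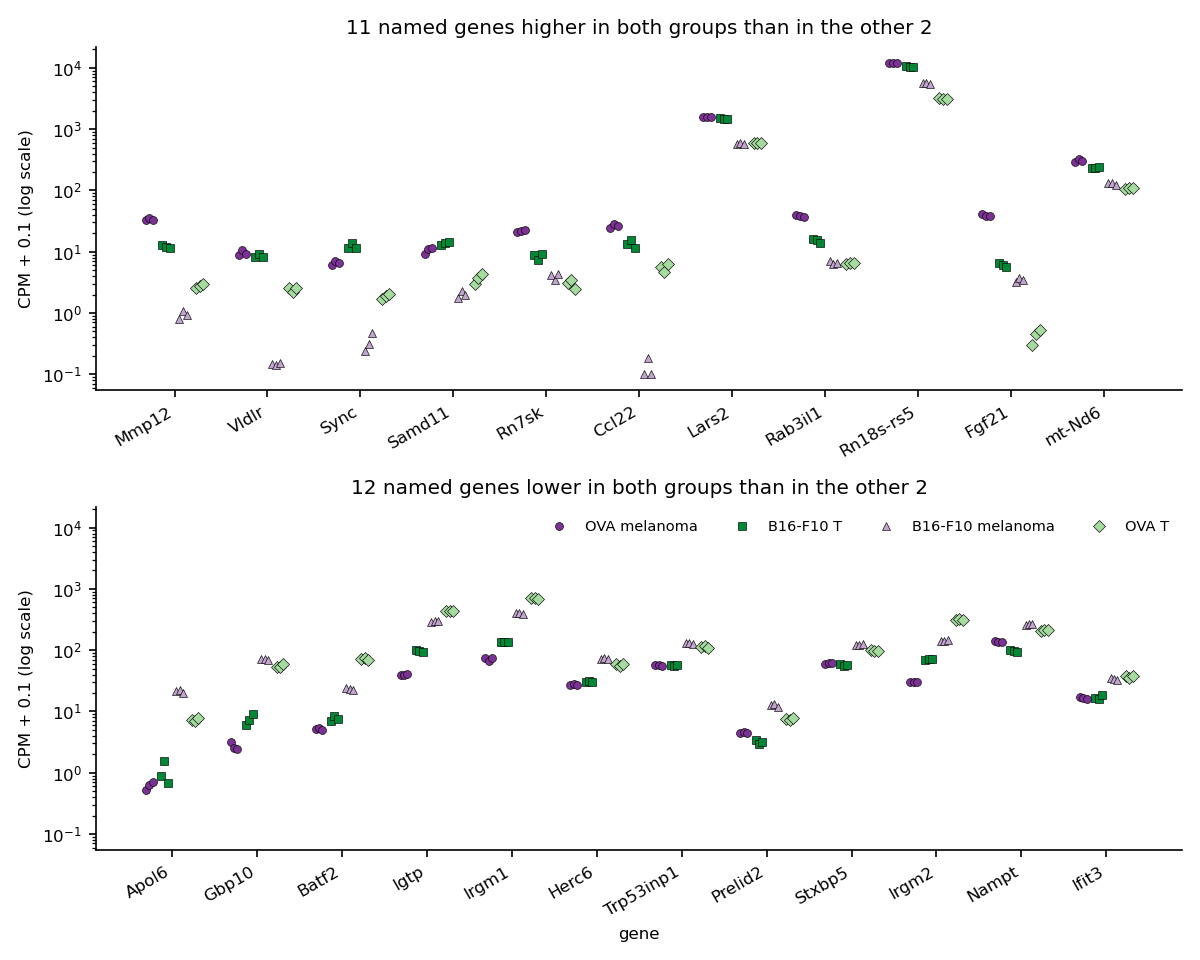
CPM + 0.1 (log scale) of 11 high and 12 low named genes shared by the OVA melanoma and B16-F10 T libraries against the other 6 libraries; each point is 1 library. In each panel the purple circles and green squares lie on 1 side of the pale triangles and diamonds, for example 98.7 CPM or less against 291 CPM or more for Igtp.

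The shared high genes held most hair follicle genes and macrophage markers. Of 20 hair follicle genes tested 17 were shared high (85%), of 13 keratinocyte genes 6 (46.2%) and of 18 macrophage markers 11 (61.1%), beside 2.04% of all genes. The lists here and below were chosen with earlier results of these data known, so these shares only describe them. The hair follicle sum was only 0.119 CPM in the B16-F10 melanoma fraction and 1.42 CPM in the OVA T fraction. Members nearly absent there passed the filter only through the 2 groups compared and could not come out shared low. The same holds for keratinocyte genes such as Krt5. The filter thus partly sets the shares of these lists, and 2.04% of all genes is no like background for them. The summed macrophage markers lay close together in the 2 T fractions, at 1289 ± 3.68 CPM (SD, n = 3) for B16-F10 and 1198 ± 1.26 for OVA. They reached 3751 ± 19.5 CPM in the OVA melanoma fraction. C1qa had 20.5, 18.8 and 21.7 CPM in the OVA T fraction, under the 35.2 to 37.3 CPM of the B16-F10 T fraction. None of the T cell, endothelial, pericyte or melanoma markers was shared, and of the 15 fibroblast markers 2 were. Of 13 mitochondrially encoded genes 9 were shared high (69.2%). The lymphatic genes Ccl21a and Mmrn1 were shared high as well, and Mmrn1 had 1.2, 1.12 and 1.37 CPM and 5.75, 5.99 and 6.78 CPM in the 2 groups against at most 0.948 CPM in the others.

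The shared high genes named by size had mixed roles. The macrophage elastase Mmp12 had 33, 35.2 and 32.5 CPM and 12.7, 11.8 and 11.2 CPM, against at most 0.991 CPM in the B16-F10 melanoma fraction and 2.84 CPM in the OVA T fraction. The chemokine Ccl22, made by dendritic cells and macrophages, had 24.2, 28.6 and 25.9 CPM and 13.4, 15.6 and 11.4 CPM, against at most 0.0862 and 6.11 CPM. Rn18s-rs5 had 12210.4, 12014 and 12189 CPM and 10811, 10457 and 10175 CPM, against 5663, 5592 and 5524 CPM and 3173, 3129.9 and 3164 CPM. Rn7sk, a short nuclear RNA, and mt-Nd6 were in the same set, and Lars2 had 1605, 1564 and 1595 CPM and 1502, 1453 and 1439 CPM against 604 CPM or less in the 6 others. The set also held the lipoprotein receptor Vldlr, Sync, Samd11, Rab3il1 and the hormone Fgf21. The ribosomal and mitochondrial shares given above moved with this set, and their part in it was not tested.

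Shared low genes included targets of interferon. Of 25 interferon gamma response genes 7 were shared low (28%), beside 1.34% of all genes, and none shared high. Among them were Irf1, Gbp2, Igtp, Irgm1, Irgm2 and Ciita, of which Gbp2 is named here after its values were seen. Igtp, an immunity GTPase, had 39.3, 38.7 and 40.6 CPM in the OVA melanoma fraction and 98.7, 96.7 and 93.6 CPM in the B16-F10 T fraction, against 291, 297 and 299.5 CPM in the B16-F10 melanoma fraction and 441, 436 and 433 CPM in the OVA T fraction. Its relative Irgm1 had 73.5, 67.6 and 73.1 CPM and 137, 136 and 134 CPM, against 402, 398 and 393 CPM and 705, 714 and 689 CPM. The other interferon genes among the 12 named were Gbp10, Batf2, Irgm2, Herc6, Apol6 and Ifit3.

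Gbp10 had 3.1, 2.45 and 2.29 CPM and 6.01, 7.18 and 8.97 CPM, against 70.8, 70.4 and 68.4 CPM and 53.9, 52.2 and 58.9 CPM. Members of the Gbp family are near copies, and its assignment is uncertain. The transcription factor Batf2 had 5.05, 5.28 and 4.79 CPM and 6.79, 8.31 and 7.55 CPM, against 24.1, 23.4 and 22 CPM and 71.9, 75.3 and 68.2 CPM. Outside the interferon genes, Trp53inp1, Prelid2, Stxbp5 and Nampt, an enzyme of NAD synthesis, were shared low, and Nampt had 139, 133 and 134 CPM and 99.7, 96.1 and 92.6 CPM against 204 CPM or more.

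The 4 promoters below are shown because these 4 genes of the shared low set carry the sequence elements through which interferon acts. They run from 250 bases before to 50 after the start of transcription, 5′ to 3′ on the strand of the gene, from RefSeq on GRCm38.p6. Igtp lies at chr11:58199306-58199605 on the plus strand, Irgm2 at chr11:58214727-58215026 on the plus strand, Irgm1 at chr11:48871371-48871670 on the minus strand and Ifit3 at chr19:34583279-34583578 on the plus strand. Capitals mark matches on either strand to GAAANNGAAA, a core of the interferon-stimulated response element, or to TTCNNNGAA, the interferon gamma activated site, with N for any base.
Igtp: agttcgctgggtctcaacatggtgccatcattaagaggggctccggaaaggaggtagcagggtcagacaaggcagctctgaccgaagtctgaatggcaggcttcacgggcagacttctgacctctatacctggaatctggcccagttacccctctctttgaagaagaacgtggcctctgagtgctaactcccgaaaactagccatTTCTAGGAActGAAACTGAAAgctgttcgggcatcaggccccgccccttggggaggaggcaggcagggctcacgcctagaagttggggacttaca
Irgm2: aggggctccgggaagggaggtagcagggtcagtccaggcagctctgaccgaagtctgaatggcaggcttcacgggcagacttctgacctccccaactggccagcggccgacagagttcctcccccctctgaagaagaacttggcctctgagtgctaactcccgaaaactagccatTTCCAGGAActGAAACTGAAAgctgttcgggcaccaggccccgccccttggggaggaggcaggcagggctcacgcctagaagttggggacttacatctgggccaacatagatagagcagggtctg
Irgm1: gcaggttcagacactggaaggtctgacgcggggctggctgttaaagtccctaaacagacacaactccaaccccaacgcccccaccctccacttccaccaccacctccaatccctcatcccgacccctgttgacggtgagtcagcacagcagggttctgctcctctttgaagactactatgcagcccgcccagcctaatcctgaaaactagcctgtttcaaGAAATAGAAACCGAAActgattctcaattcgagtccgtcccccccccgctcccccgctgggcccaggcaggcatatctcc
Ifit3: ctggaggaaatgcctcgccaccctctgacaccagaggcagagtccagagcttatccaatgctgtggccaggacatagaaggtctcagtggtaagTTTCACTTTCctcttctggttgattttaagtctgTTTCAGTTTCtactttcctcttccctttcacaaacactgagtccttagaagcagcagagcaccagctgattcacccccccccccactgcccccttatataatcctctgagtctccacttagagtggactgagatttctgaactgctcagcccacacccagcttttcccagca

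The Igtp and Irgm2 promoters each held 1 match to either motif, close together, at bases 206 to 214 and 217 to 226 of the Igtp window. Irgm1 held 2 overlapping matches to the response element, at bases 221 to 230 and 227 to 236, and Ifit3 held 2 that did not overlap. Of the 12 named shared low genes 7 had a promoter in the table, and the other 3 of these 7, Herc6, Nampt and Stxbp5, held no match in this window. Over the 183 of 248 shared low genes with a promoter, 17 held the response element (9.29%) and 20 the activated site (10.9%). Over the 11902 of 18562 genes tested that had a promoter, the shares were 3.97% and 8.34%. They were 3.99% and 9.55% over all 27025 genes with a promoter, tested or not, and 5.95% and 5.56% over the 252 of 379 shared high genes. A match is a description of the letters and says nothing of binding.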

How the data were processed

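Messenger RNA of 12 libraries was purified with poly-T beads and sequenced. The authors deposited raw counts per gene in 1 table, and HISAT2 2.0.5, featureCounts 1.6.0 and GRCm39 are named per the submitters' processing notes. The strand setting and the treatment of reads with several matches are not given in the sources used here, so near-identical and antisense genes are uncertain.

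The table holds 77175 genes, of which 21805 have no symbol and 303 symbols stand on several genes. Genes were filtered with filterByExpr and compared with edgeR 4.0.16 (TMM scaling, quasi-likelihood F test, Benjamini-Hochberg adjustment over all genes tested, threshold 0.05), and with glmTreat against a 2-fold change. R 4.3.3 and limma 3.58.1 were used, and the fits were tested on simulated data. For values per marker, the library size was set to the summed counts of a marker list. Values in CPM use library totals. The gene lists, of which 541 of 545 symbols were found once, and the members were chosen with earlier results of these data known. Named genes were the 12 highest and 12 lowest changes of at least 5 CPM, the most abundant and most changed members of each list, and the 12 highest and lowest shared genes, with exceptions stated. A few genes that this rule names are not reported here. Alternatives were DESeq2 1.42.0, other scalings and filters, a replicate block and leaving out each library. Promoters are from RefSeq on GRCm38.p6, and no coordinates of the count table's build were used.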

Additional observations from a re-analysis of the deposited data

How the results depend on the processing

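The direction of 4 summed lists turned when members were left out. The log2 ratio of the fibroblast sum became 0.38 without the collagen genes and Thy1, that of the adipocyte sum 0.39 without Fabp4, that of the Schwann cell sum -0.25 without Sox10, and that of the Y-linked genes and Xist 0.96 without Xist (exact permutation p = 0.5). The counts of genes called, per-marker counts and shared genes stayed within 1.5 times under the alternatives run. Leaving out 1 library gave 6861 to 7041 genes higher and 6336 to 6525 lower, and 355 to 403 shared high and 233 to 284 shared low. DESeq2 gave 7099 and 6205, and scaling by library totals 7597 and 5943. Same-numbered libraries did not clearly deviate together (correlations -0.0387, -0.0450 and 0.108 over 13005 genes), and differently numbered ones ranged from -0.156 to 0.189. With deviations near counting noise this cannot exclude a pairing by number. A replicate block gave 6956 and 6476. The libraries agree closely, so small differences pass the test, and 3 against 3 libraries limit every exact test of a sum. Among named genes, the log2 fold changes of Stxbp5 and Trp53inp1 between these 2 groups were near 0 and not called, and they changed sign: Stxbp5 was -0.0117 with median-ratio size factors, -0.0128 with a filter of 1 CPM, -0.00116 with the replicate block and -0.0483 to 0.0292 without 1 library, and Trp53inp1 was 0.0199 with library totals and 0.0019 without the filter.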

Other observations

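Hdc, the histamine-forming enzyme of mast cells, basophils and neutrophils and the only 1 of 8 mast cell and basophil genes tested, had 185, 179 and 184 CPM in the OVA melanoma fraction and 40.3, 43.1 and 43.2 CPM in the B16-F10 T fraction, without overlap. The gamma delta T cell receptor gene Trdc had 6.46, 5.49 and 5.59 CPM against 45.2, 46.4 and 46.2 CPM, a log2 fold change of -3.02. The immunoglobulin gene Ighm had 30.6, 31.9 and 31.2 CPM against 53, 51.5 and 53.4 CPM. All 5 erythroid genes tested were lower, with a median of -2.56, and the globin gene Hba-a1 had 11.1, 9.81 and 13.4 CPM against 62.6, 61.9 and 69.6 CPM. Of 18 mitosis genes 12 were higher and 3 lower, the median was 0.18, and none was beyond 2-fold.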
